A study of Mus musculus with 26 samples.

Results

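The genes described here are the factors that start and extend protein synthesis on cytosolic ribosomes, chosen by name alone as all symbols in the deposited gene table that begin with Eif1 to Eif6 or with Eef1 or Eef2, without Eif2s3y and without names marked as pseudogenes. The rule took 71 of 55487 genes, among them the 4 kinases of eIF2α (Eif2ak1 to Eif2ak4) and the 3 inhibitors of eIF4E (Eif4ebp1 to Eif4ebp3). Transcripts were sequenced from the proximal small intestine (SI) of 26 C57BL/6N mice aged 8 to 12 weeks, in pieces cut just behind the stomach. Knockout mice (floxed on both alleles of the targeted gene, with Villin-creER T2, 7 at day 3 and 6 at day 7) lose that gene once tamoxifen has activated a Cre recombinase that the villin promoter restricts to intestinal epithelial cells (IECs). Control mice (floxed littermates with no Cre transgene, 7 at day 3 and 6 at day 7) received the same 5 daily injections, and day 3 and day 7 count from the last injection. The pieces hold epithelium, lamina propria and muscle, so fewer cells of a type and less RNA per cell cannot be told apart. Each mouse gave 1 library, which read the 3′ ends of polyadenylated transcripts.

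Initiation begins when eIF2, loaded with GTP and the initiator methionyl-tRNA, joins the small ribosomal subunit together with eIF1, eIF1A, eIF3 and eIF5. The cap-binding eIF4E, the scaffold eIF4G and the helicase eIF4A bring the mRNA, and the complex scans to the start codon. Control is exerted at both steps. Kinases that sense stress phosphorylate the α subunit of eIF2, which then blocks its exchange factor eIF2B, and the eIF4E-binding proteins (4E-BPs) hold eIF4E away from eIF4G unless the kinase complex mTORC1 phosphorylates them. During elongation eEF1A delivers aminoacyl-tRNA, the eEF1B subunits recharge eEF1A with GTP, and eEF2 moves the ribosome along the mRNA. The intestinal epithelium renews itself within days and makes large amounts of protein, and many mRNAs of elongation factors carry a terminal oligopyrimidine (TOP) tract through which mTORC1 governs their translation.

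Upstream sequences are shown for 4 of the 5 members that were higher in knockout mice on both days (Eif3c, Eif2s2, Eif5 and Eif3a). The choice follows these calls alone, and whether the promoters take part in the changes was not tested. Each line gives the bases before the RefSeq start of the gene (build GRCm38.p6, 5′ to 3′ on the strand of the gene), up to 250 bases and without bases that the GENCODE M21 annotation places in the gene. Capitals mark a match to 1 of 4 motifs searched on both strands, which were the C/EBP-ATF response element (CARE, TGATGNAA), the core of the cAMP response element (CRE, TGACGT), the E-box CACGTG and the CCAAT box.
Eif3c, chr7:126566412-126566616, minus strand: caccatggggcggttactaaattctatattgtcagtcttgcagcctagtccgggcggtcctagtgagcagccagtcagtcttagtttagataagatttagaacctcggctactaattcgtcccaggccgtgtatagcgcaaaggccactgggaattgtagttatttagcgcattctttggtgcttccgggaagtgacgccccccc
Eif2s2, chr2:154892936-154893156, minus strand: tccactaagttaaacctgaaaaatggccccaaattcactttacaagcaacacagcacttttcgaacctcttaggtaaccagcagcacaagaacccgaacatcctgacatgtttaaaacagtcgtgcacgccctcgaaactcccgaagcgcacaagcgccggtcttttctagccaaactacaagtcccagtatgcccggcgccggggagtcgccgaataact
Eif5, chr12:111537851-111538015, plus strand: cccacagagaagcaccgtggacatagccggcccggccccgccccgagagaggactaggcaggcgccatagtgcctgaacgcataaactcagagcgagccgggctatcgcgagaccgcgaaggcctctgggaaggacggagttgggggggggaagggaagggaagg
Eif3a, chr19:60790694-60790943, minus strand: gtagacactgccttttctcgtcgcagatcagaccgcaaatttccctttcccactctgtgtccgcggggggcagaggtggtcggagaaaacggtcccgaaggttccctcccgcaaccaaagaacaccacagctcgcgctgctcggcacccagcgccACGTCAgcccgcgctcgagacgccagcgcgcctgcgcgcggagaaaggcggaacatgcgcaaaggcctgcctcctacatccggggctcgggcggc

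Of these 4 stretches, the one of Eif3a holds 1 match, to the CRE core on the opposite strand, 95 bases before the start, and no match of the 4 motifs was found in the windows of Eif3c, Eif2s2 and Eif5. A RefSeq promoter entry was matched for 54 of the 71 members, and Eif4ebp1 is among those without one. In the 250 bases before the start, the CARE was found in 2 of the 54 members (3.7%, Eef2k and Eif2s3x) and in 3.45% of all 32851 promoters. It was found in 0 of the 31 members with an entry that were higher in knockout mice at day 7. The CRE core was found in 8 members (14.8%, against 6.47% of all promoters), the E-box in 13 (24.1%, against 6.02%) and the CCAAT box in 18 (33.3%, against 33.8%). The E-box and CRE matches include promoters of members that did not pass the threshold, such as Eif4e, Eif4g1 and Eif5a with an E-box, and 5 of the 31 higher members held each of these motifs.

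The libraries held between 3720168 and 6338016 counts on genes, and levels are given as CPM (counts scaled to the library total). All 10 genes of an enterocyte list (Fabp1, Sis and others) had counts in every group. In 8 libraries (knockout replicates 1 and 2 and control replicates 2, 3, 5 and 7 of day 3, knockout replicate 4 and control replicate 2 of day 7) genes of pancreatic acinar cells or of the stomach summed to more than 10000 CPM. Leaving out these 8 libraries gave 6 members higher and 0 lower in knockout mice at day 3, and 43 higher with 6 lower at day 7. Over all genes it gave 146 higher and 52 lower of 20623 at day 3, and 3832 and 3810 of 19639 at day 7.

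Of the 71 members, 67 had enough counts to be tested. Eif4e1b (an eIF4E of oocytes), Eif4a3l1, Eif4a3l2 and Eif2c5, a lincRNA that carries the prefix by name only, were at 0 in all 26 libraries. Members with near-identical copies elsewhere are uncertain, because reads of the copies cannot be assigned safely: the last 300 bases of 16 members match other genes, most often Eif1 and Eef1a1 with 12 copies each, and exons of 29 members overlap other genes. The others with copies are Eif4a3, Eif4a3l1 and Eif4a3l2 (3 each) and Eif4e and Eif5a (2 each). Eef1b2, Eef1d, Eif2s2, Eif2s3x, Eif3h, Eif3j2, Eif3m, Eif4a2 and Eif4e1b have 1 each. At day 3, 5 of the 67 tested members were higher in knockout mice (7.46%) and 0 were lower, where 1.11% of all 20760 genes tested were called higher and 0.323% lower (edgeR's quasi-likelihood test, Benjamini-Hochberg adjusted p under 0.05). The day-3 count was 14 without knockout replicate 1, where 584 of 20975 genes were called higher. It was 13 with DESeq2, where 536 of 15930 genes with an adjusted p were called higher. Calls over all genes thus rose too, from 230 of 20760. At day 7, 42 members were higher (62.7%) and 5 lower (7.46%), where 19.7% of all 20259 genes tested were called higher and 18.8% lower. The median log2 fold change of the members was 0.2 at day 3 and 0.46 at day 7, and that of all genes was -0.03 and -0.02. At day 7 the values of the 2 genotypes did not overlap for 30 members higher and 2 lower in knockout mice, against 11.0% and 11.6% of all genes. At day 3 the same was true of 4 members higher and 0 lower, against 0.356% and 0.491% of all genes. All 5 members called at day 3 were called again at day 7, 37 were called higher and 5 lower at day 7 and not at day 3, and 20 passed the threshold on neither day. Being called on 1 day is no test of a difference between the days, which is given below, and 53 of the 67 members had a positive log2 fold change at day 3.

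**Figure D1:**
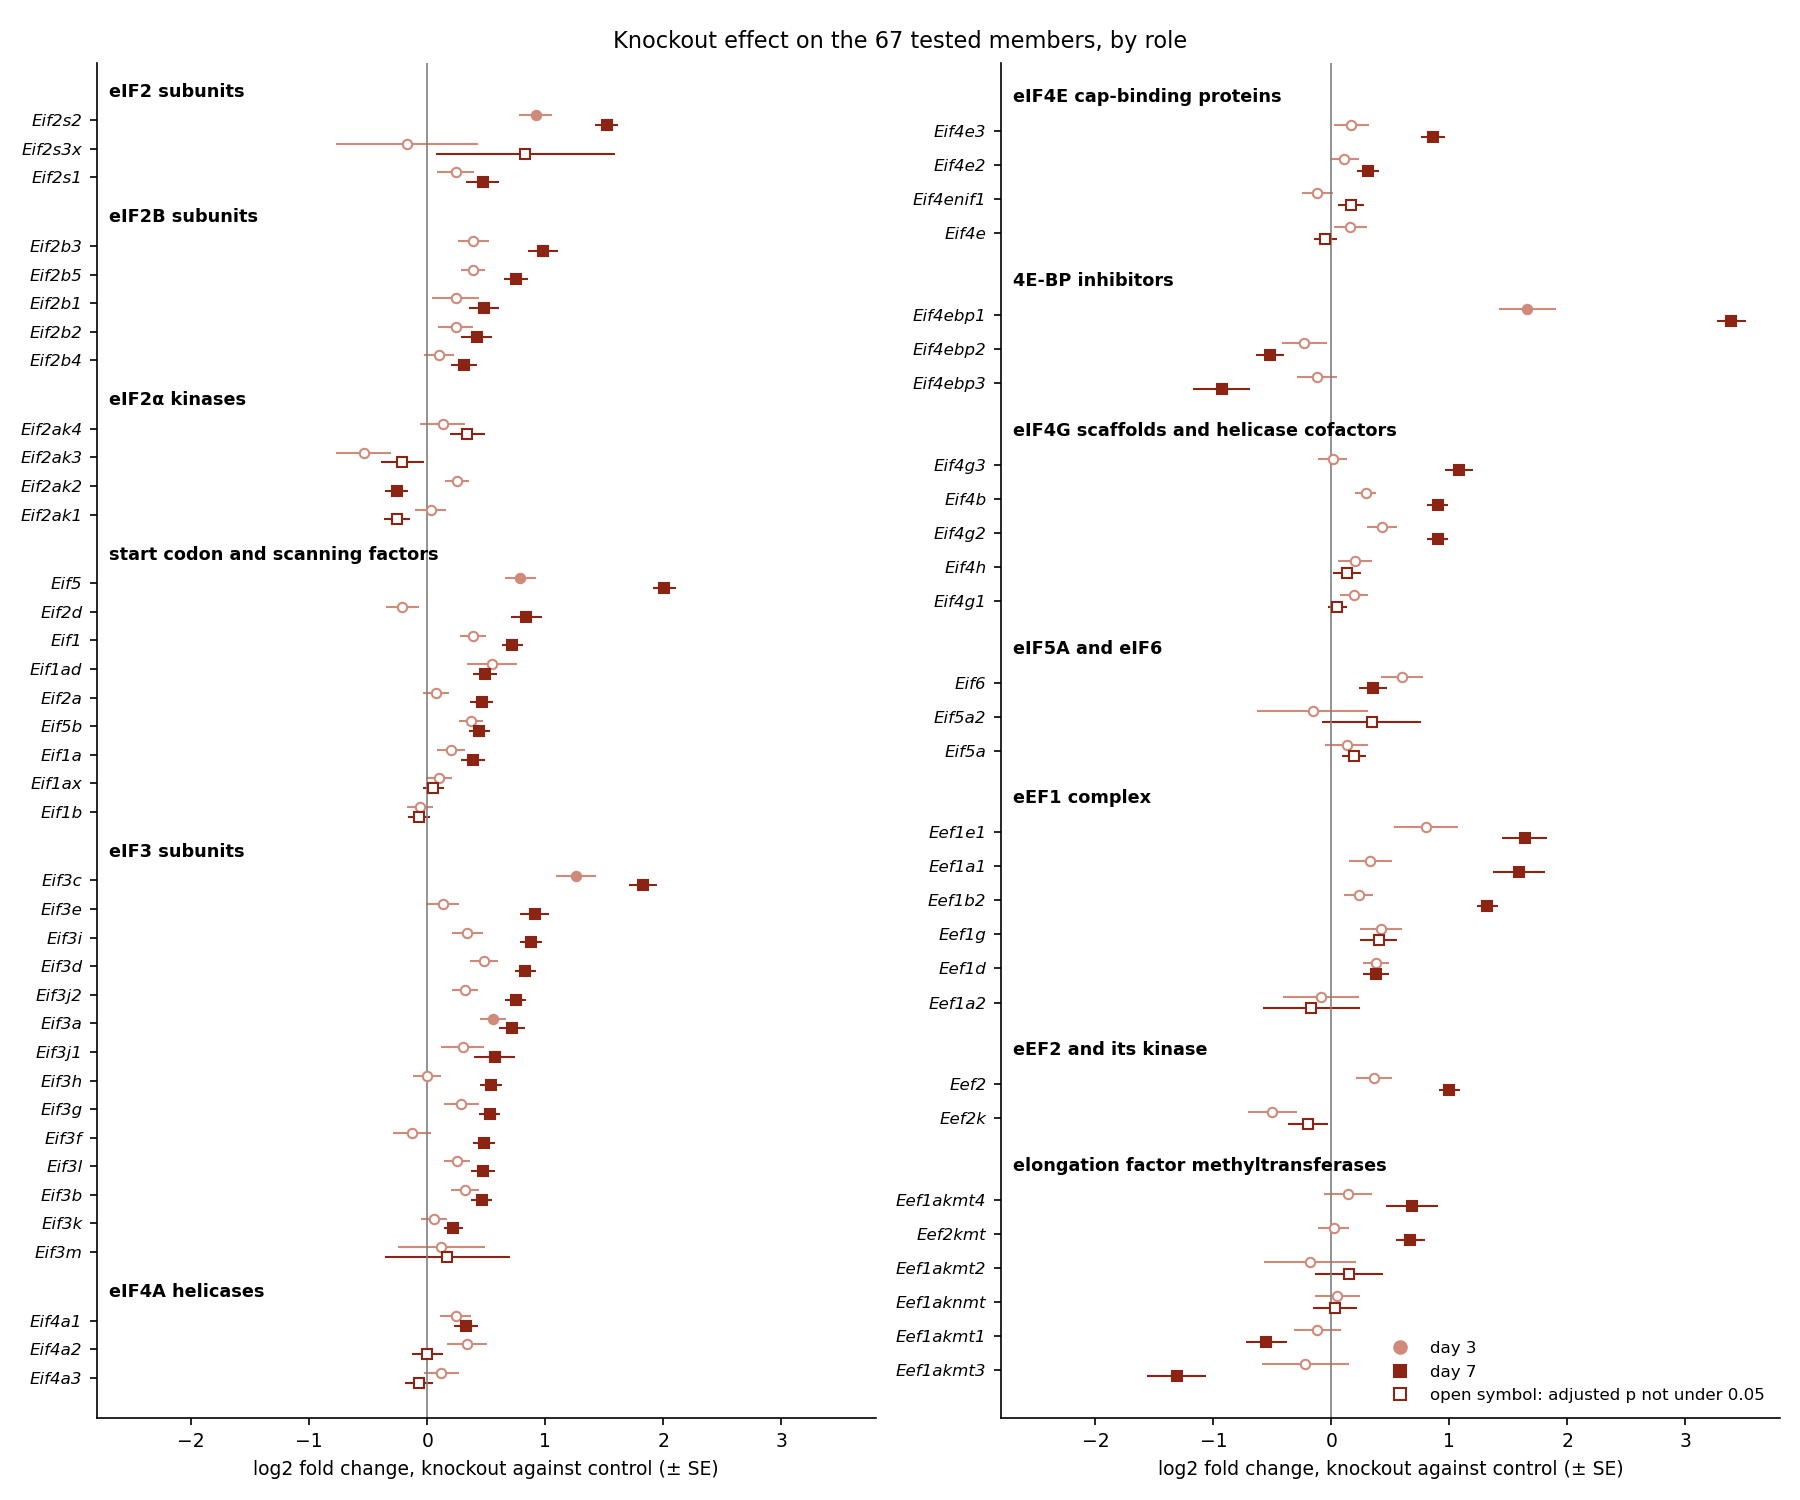
Log2 fold change (x axis, ± SE) of each of the 67 tested members in knockout against control mice at day 3 (circles) and day 7 (squares), grouped by role, with filled symbols for an adjusted p under 0.05. At day 7 the filled squares lie to the right of 0 for 42 members and to the left for 5, and at day 3 the filled circles are 5, all to the right.

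The same direction was seen in the share of counts. In control mice the 71 members together took 0.686% ± 0.033 of all counts at day 3 (SD, n = 7) and 0.597% ± 0.015 at day 7 (n = 6). In knockout mice they took 0.838% ± 0.097 at day 3 (n = 7) and 1.03% ± 0.05 at day 7 (n = 6). The lowest knockout mouse of day 7, at 0.956%, lay above the highest control mouse, at 0.617%, whereas at day 3 the ranges overlapped (0.705% to 0.98% against 0.627% to 0.726%). Without the 8 libraries with pancreatic or stomach genes they did not, at 0.803% to 0.98% (n = 5) against 0.688% to 0.714% (n = 3). The eIF3 subunits held the largest share of the roles in each group, rising from 0.165% ± 0.01 in control to 0.323% ± 0.025 in knockout mice at day 7. Shares of roles with copied 3′ ends are uncertain, as for the eEF1 complex, whose Eef1a1 has 12 copies. No test was made on these sums, which repeat the values of the genes within them.

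**Figure D2:**
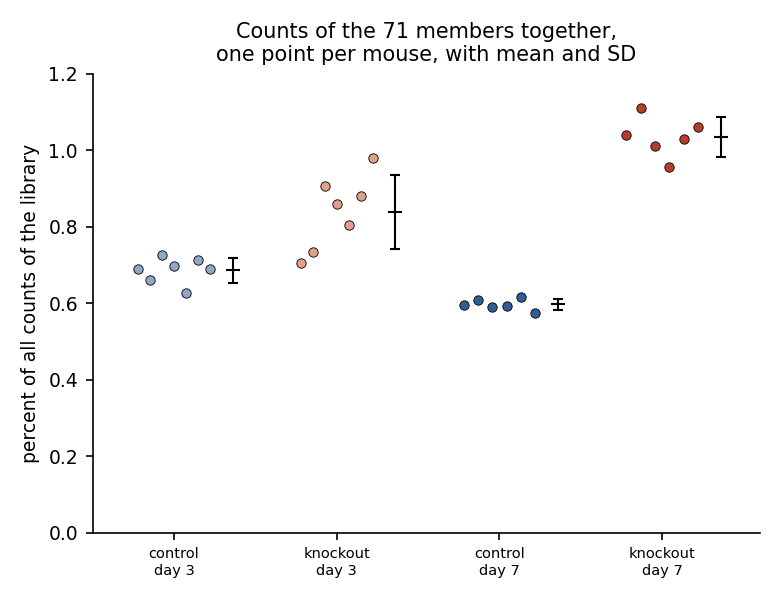
Percent of each library's counts (y axis) taken by the 71 members together, 1 point per mouse, with mean and SD beside each group. The knockout mice of day 7 sit between 0.956% and 1.11%, all above the control mice of the same day at 0.575% to 0.617%.

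At day 7 the levels of marker genes of several cell types also differed between the genotypes. Over all genes tested at day 7, 19.7% were called higher and 18.8% lower. At day 7, 9 of 10 enterocyte genes were lower in knockout mice (summed level 4220 to 5820 CPM against 10300 to 20200 CPM). Of 12 proliferation genes 11 were lower and 1 was higher (194 to 309 CPM against 697 to 883 CPM), and of 8 tested genes of lymphocytes and plasma cells 4 were lower and 2 higher (209 to 438 CPM against 503 to 1240 CPM). None of 8 smooth muscle genes passed the threshold (737 to 1050 CPM against 640 to 1170 CPM). Among 6 striated muscle genes, of which 5 were tested, 1 was higher and 1 lower (88.8 to 123 CPM against 8.14 to 12.0 CPM), and most of this sum was Acta1, skeletal muscle actin, at 82.6 to 121 CPM against 2.82 to 4.62 CPM. At day 3, 0 enterocyte, proliferation or lymphocyte genes passed the threshold, and 1 striated muscle gene was higher. The part of these lists in the results for the translation factors was not tested.

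Eif4ebp1, which encodes the eIF4E inhibitor 4E-BP1 and is a known target of the transcription factor ATF4, showed the largest rise of any member on both days. The gene lies on chromosome 8 at 27260329 to 27276674 on the plus strand (GRCm38). In control mice of day 3 it ran from 16.0 to 32.5 CPM (median 21.2) and in knockout mice of day 3 from 35.3 to 110 CPM (median 72.2). In control mice of day 7 it ran from 17.0 to 22.0 CPM (median 19.3) and in knockout mice from 153 to 246 CPM (median 196). Every knockout mouse was thus above every control mouse of its day, and the knockout mice of day 3 varied more among themselves than those of any other group in proportion to their level. Eif4ebp1 rose by 1.66 on the log2 scale at day 3 (SE 0.24, adjusted p = 0.0013) and 3.39 at day 7 (SE 0.12, adjusted p = 5.3e-13). The effect at day 7 exceeded that at day 3 by 1.75 on the log2 scale (SE 0.29, adjusted p = 6.2e-05 for the interaction).

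The other 4E-BPs went the opposite way at day 7. Eif4ebp2 was at 95.5 to 154 CPM in knockout mice (median 125) and 173 to 200 CPM in control mice (median 180), with no overlap, and fell by 0.52 on the log2 scale (SE 0.12, adjusted p = 0.0012). Eif4ebp3 was at 3.79 to 8.5 CPM against 6.51 to 18.1 CPM, with overlapping ranges, and fell by 0.93 (SE 0.24, adjusted p = 0.0039). At day 3 neither passed the threshold, with log2 fold changes of -0.23 (adjusted p = 0.66) and -0.12 (adjusted p = 0.83). Eif4ebp3 overlaps another annotated transcript on its own strand, so its few counts may be shared. The mRNA of their partner Eif4e, the cap-binding protein, was at 25.2 to 29.8 CPM in knockout and 25.7 to 32.7 CPM in control mice of day 7. It had a log2 fold change of -0.05 (SE 0.1, adjusted p = 0.77), and at day 3 it was 0.16 (SE 0.14, adjusted p = 0.67). The last bases of Eif4e match 2 pseudogenes, so its counts and the ratio to Eif4e given below are less certain.

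Of the other 3 tested genes listed with Eif4e, 2 rose at day 7, where 19.7% of all genes were called higher. Eif4e3, an atypical cap-binding protein, was at 56.6 to 79.7 CPM in knockout and 34.1 to 46.9 CPM in control mice, and the groups did not overlap. Its log2 fold change of 0.86 at day 7 (SE 0.1, adjusted p = 2.2e-06) was larger than that of 0.17 at day 3 by 0.71 (SE 0.2, adjusted p = 0.012). Eif4e2, which encodes the repressive cap-binding protein 4EHP, rose by 0.31 (SE 0.09, adjusted p = 0.014) with overlapping ranges. Eif4enif1, whose product carries eIF4E into the nucleus, was at 26.8 to 35.8 CPM against 22.4 to 31.4 CPM, a log2 fold change of 0.17 (adjusted p = 0.25).

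The balance of 4E-BP1 mRNA to that of eIF4E was compared within each library as a log2 ratio of counts, a quantity that does not depend on the scaling between libraries. The Eif4ebp1/Eif4e ratio was 1.11 ± 0.41 in knockout and -0.32 ± 0.53 in control mice at day 3 (SD, n = 7 each), a difference of 1.43 (exact permutation test, two-sided, p = 0.000583, adjusted p = 0.00466 over 16 comparisons). At day 7 it was 2.86 ± 0.29 in knockout and -0.55 ± 0.27 in control mice (n = 6 each), a difference of 3.41 (exact permutation p = 0.00216, adjusted p = 0.00577). Both p-values are the smallest that 3432 and 924 permutations can give. The Eif4ebp1/Eif4ebp2 ratio differed by 1.8 at day 3 and by 3.91 at day 7, with the same exact permutation p-values. In neither ratio did the genotypes overlap on either day.

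**Figure D3:**
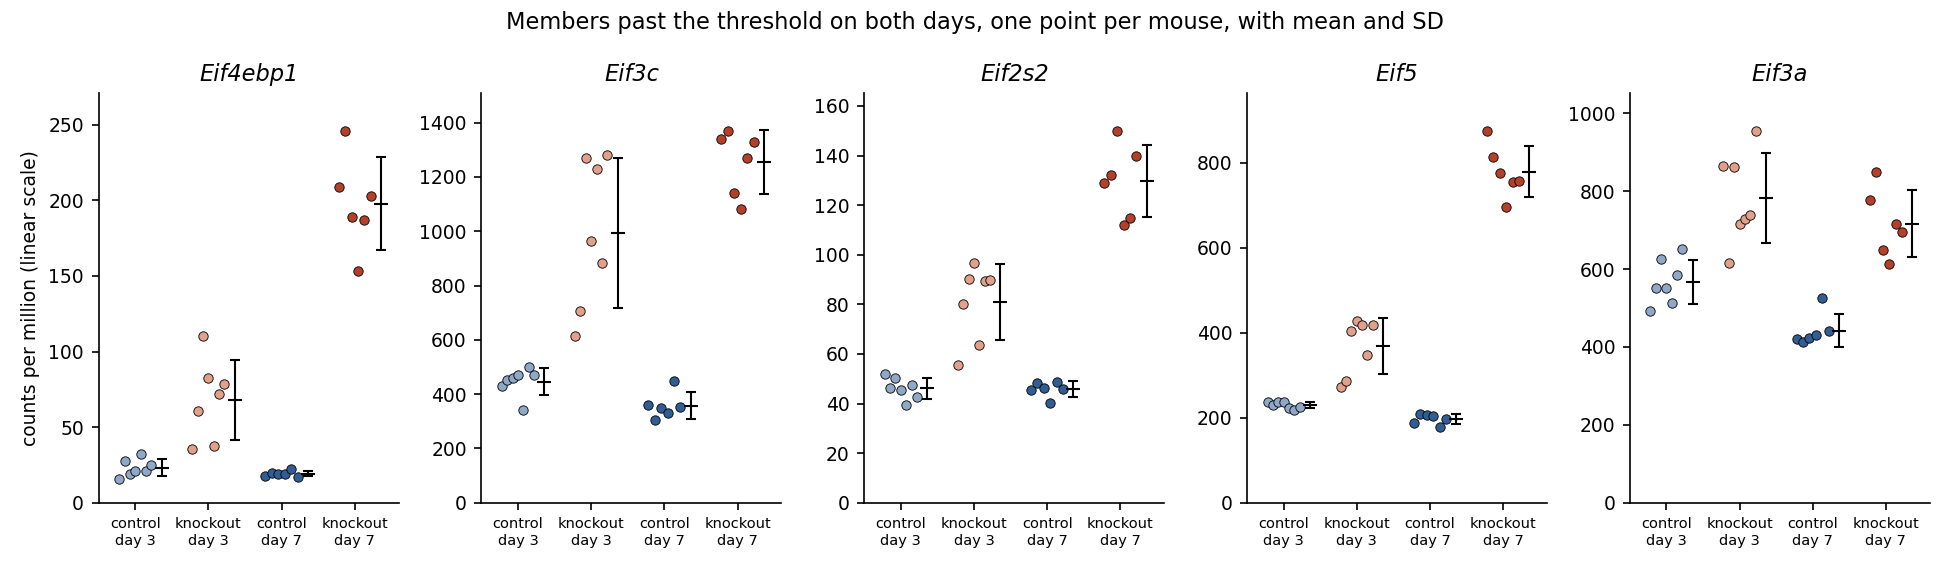
CPM on a linear scale (y axis) of the 5 members called higher on both days, 1 point per mouse in each of the 4 groups, with mean and SD beside the points. Knockout mice lie above all control mice of their day except for Eif3a at day 3, where 616 to 955 CPM overlaps with 492 to 651 CPM.

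Of the 3 subunits of eIF2, 1 was called higher at day 3 and 2 at day 7, against 1.11% and 19.7% of all genes. Eif2s2, which encodes the β subunit, was at 55.7 to 96.5 CPM in knockout (median 89.6) and 39.5 to 51.8 CPM in control mice (median 46.3) of day 3. At day 7 it was at 112 to 150 CPM (median 130) against 40.2 to 48.7 CPM (median 46.1), so that the genotypes were separate on both days. Eif2s2 rose by 0.92 on the log2 scale at day 3 (SE 0.14, adjusted p = 0.0014) and 1.52 at day 7 (SE 0.1, adjusted p = 1.5e-09), and the effects differed by 0.63 (SE 0.17, adjusted p = 0.012). The last bases of Eif2s2 match 1 pseudogene.

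Eif2s1, which encodes the α subunit that the kinases phosphorylate, was at 13.1 to 21.2 CPM in knockout and 8.86 to 15.6 CPM in control mice of day 7. It rose by 0.47 on the log2 scale (SE 0.14, adjusted p = 0.011), and at day 3 the log2 fold change was 0.24 (SE 0.16, adjusted p = 0.54). The difference between the changes of Eif2s1 and Eif2s2 was not tested. Eif2s3x, the γ subunit, was at most 1.77 CPM in every library and matches 1 pseudogene, and its estimate is imprecise (log2 fold change 0.83 with an SE of 0.76 at day 7).

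All 5 subunits of eIF2B, the exchange factor that reloads eIF2 with GTP, rose at day 7, by 0.31 to 0.98 on the log2 scale (median 0.48). At day 3, 0 of them passed the threshold. Called higher were 1.11% of all genes at day 3 and 19.7% at day 7. The largest change was that of Eif2b3, which encodes the γ subunit. It was at 18.4 to 24.9 CPM in knockout and 8.72 to 13.1 CPM in control mice of day 7, a log2 fold change of 0.98 (SE 0.13, adjusted p = 6.6e-06) that exceeded the change at day 3 by 0.62 (SE 0.18, adjusted p = 0.02; 0.53 with an adjusted p of 0.15 without the 8 libraries). Control mice had less of Eif2b3 at day 7 than at day 3 (17.9 to 27.5 CPM), a log2 change of -0.75 (SE 0.14, adjusted p = 0.00061), so the knockout mice of day 7 lay near the control level of day 3. Eif2b5, the catalytic ε subunit, was at 66.7 to 93.8 CPM against 39.8 to 54.5 CPM at day 7, with no overlap, and rose by 0.75 (SE 0.1, adjusted p = 1.1e-05).

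None of the 4 kinases of eIF2α was called higher in knockout mice at day 3 or day 7, where 1.11% and 19.7% of all genes were. Eif2ak1 (HRI, which responds to haem and to mitochondrial stress) was at 67.8 to 76.0 CPM in knockout and 63.0 to 105 CPM in control mice of day 7, with a log2 fold change of -0.26 (SE 0.11, adjusted p = 0.081). Without the 8 libraries named above, Eif2ak1 fell by 0.35 (adjusted p = 0.0067), without control replicate 2 it fell by 0.36 (adjusted p = 0.0026), and without control replicate 4 by 0.32 (adjusted p = 0.05, just under the threshold before rounding). Eif2ak4 (GCN2, which senses uncharged tRNA) was at 7.96 to 13.5 CPM against 7.32 to 12.9 CPM, a log2 fold change of 0.34 (SE 0.15, adjusted p = 0.097). Without control replicate 4, its highest control mouse, it rose by 0.42 (adjusted p = 0.03). Eif2ak3 (PERK, the kinase of the endoplasmic reticulum) was at 5.26 to 8.64 CPM against 5.3 to 10.4 CPM, a log2 fold change of -0.21 (SE 0.18, adjusted p = 0.37).

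Eif2ak2, which encodes the interferon-induced kinase PKR that binds double-stranded RNA, fell by 0.26 at day 7 (SE 0.1, adjusted p = 0.049), from 54.9 to 72.4 CPM in control to 42.9 to 60.3 CPM in knockout mice. At day 3 it had a log2 fold change of 0.25 (SE 0.1, adjusted p = 0.29). It was the 1 member called with a lower effect at day 7 than at day 3, by 0.48 (SE 0.14, adjusted p = 0.019), although 2 members were called so with DESeq2 and 0 with library totals. Among all genes, 2289 of 20087 were called so with DESeq2 and 1729 of 23803 with library totals. The fall at day 7 lies at the threshold, since leaving out any of knockout replicates 2, 3, 4 and 5 or control replicates 5 and 6 gave adjusted p-values of 0.051 to 0.11, and without the 8 libraries the difference between the days was -0.38 (adjusted p = 0.18). At day 3 the log2 fold changes of the 4 kinases lay between -0.54 and 0.25, and 0 passed the threshold.

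Among the factors that read the start codon, Eif5 rose most. Its product makes eIF2 hydrolyse GTP when the start codon is found. Eif5 was at 273 to 429 CPM in knockout (median 404) and 219 to 238 CPM in control mice (median 231) of day 3. At day 7 it was at 697 to 876 CPM (median 767) against 178 to 209 CPM (median 201), and the genotypes were separate on both days. The log2 fold change of 0.79 at day 3 (SE 0.13, adjusted p = 0.0025) grew to 2.01 at day 7 (SE 0.1, adjusted p = 1.8e-11), a difference of 1.25 (SE 0.16, adjusted p = 1.5e-06). An exon of Eif5 overlaps a small nucleolar RNA on the same strand.

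In all, 7 of 9 start codon and scanning factors were higher at day 7 and 0 were lower, against 19.7% and 18.8% of all genes. Counted among the 9 is Eif1ad (82.0 to 90.8 CPM against 53.7 to 78.3 CPM), without a claim that its product reads the start codon. Eif2d, which encodes a factor of reinitiation and ribosome recycling, was at 19.1 to 29.6 CPM in knockout and 10.2 to 13.2 CPM in control mice of day 7. Its log2 fold change of 0.84 (SE 0.13, adjusted p = 4e-05) stood against -0.21 at day 3 (SE 0.14, adjusted p = 0.55), and the difference between the days was 1.08 (SE 0.19, adjusted p = 0.00013). The highest of the knockout mice was replicate 3, and the other knockout mice were also above every control mouse. Eif1, a guard of start codon choice, rose by 0.72 (133 to 155 CPM against 78.6 to 110 CPM, adjusted p = 4.9e-06), but its 3′ end has 12 copies. Eif1b and Eif1ax were the 2 that did not pass, at log2 fold changes of -0.07 (adjusted p = 0.55) and 0.05 (adjusted p = 0.69). Eif5b, the GTPase that joins the ribosomal subunits, rose by 0.44 (452 to 528 CPM against 346 to 383 CPM, adjusted p = 0.00048).

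eIF3, the largest of the initiation factors, holds the small ribosomal subunit open for the mRNA. Of its 14 subunit genes 13 were higher at day 7 and 0 were lower, and 2 were higher at day 3. The shares of all genes were 19.7% higher and 18.8% lower at day 7, and 1.11% higher at day 3. Eif3c showed the largest change. It was at 614 to 1280 CPM in knockout (median 965) and 342 to 499 CPM in control mice (median 459) of day 3, and at 1080 to 1370 CPM (median 1300) against 305 to 449 CPM (median 351) at day 7. The genotypes were separate on both days, with knockout replicates 1 and 2 of day 3 nearest to the control mice. Eif3c rose by 1.26 on the log2 scale at day 3 (SE 0.17, adjusted p = 0.00059) and 1.83 at day 7 (SE 0.12, adjusted p = 8.1e-10), with a difference between the days of 0.6 (SE 0.21, adjusted p = 0.052). Leaving out any 1 of 6 mice brought that difference past the threshold, at 0.64 to 0.69 (adjusted p-values of 0.024 to 0.044).

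Eif3a, the largest subunit and the scaffold of the complex, had similar effects on both days. It was at 616 to 955 CPM in knockout (median 739) and 492 to 651 CPM in control mice (median 552) of day 3, which overlap, and at 612 to 850 CPM (median 705) against 413 to 526 CPM (median 426) at day 7, which do not. The log2 fold change was 0.56 at day 3 (SE 0.11, adjusted p = 0.013) and 0.72 at day 7 (SE 0.11, adjusted p = 3e-05), and the difference between them was 0.18 (SE 0.15, adjusted p = 0.49). With library totals alone as the scale, the change at day 3 was 0.47 (adjusted p = 0.081).

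In 5 other eIF3 subunits the effect was larger at day 7 than at day 3, as it was in 7.07% of all genes tested. Eif3e rose by 0.91 at day 7 (70.0 to 103 CPM against 36.9 to 51.5 CPM, adjusted p = 4.8e-06) and had a log2 fold change of 0.13 at day 3, a difference of 0.8 (SE 0.19, adjusted p = 0.0027). Eif3i rose by 0.88 (90.2 to 118 CPM against 56.6 to 66.4 CPM, adjusted p = 4.5e-07), with a difference between the days of 0.57 (adjusted p = 0.011). Eif3e and Eif3i encode a subunit of the helical shell and a β-propeller subunit. Eif3h and Eif3f, which encode the pair of subunits with an MPN fold, were close to 0 at day 3 (0.0 and -0.13) and rose at day 7 by 0.54 (adjusted p = 6.3e-05) and 0.48 (adjusted p = 0.0003). Their differences between the days were 0.56 (adjusted p = 0.0057) and 0.63 (adjusted p = 0.019). Eif3j2, 1 of a pair of genes for the loosely bound j subunit, rose by 0.75 (143 to 197 CPM against 90.5 to 104 CPM, adjusted p = 3.5e-06), with a difference of 0.46 (adjusted p = 0.025). Without knockout replicate 5 of day 3 the Eif3j2 difference was 0.39 (adjusted p = 0.061), without knockout replicate 2 of day 7 it was 0.41 (adjusted p = 0.053), and without the 8 libraries it was 0.35 (adjusted p = 0.19).

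The smallest called rise was that of Eif3k, at 0.22 (111 to 131 CPM against 91.5 to 124 CPM, adjusted p = 0.048). Eif3m, at 0.217 to 5.39 CPM over all mice of day 7, was the 1 subunit that did not pass, with a log2 fold change of 0.17 and an SE of 0.53. It matches 1 pseudogene, and a change of the size seen in most other subunits was not detectable at this depth. The other 5 subunits (Eif3b, Eif3d, Eif3g, Eif3j1 and Eif3l) rose by 0.46 to 0.83 at day 7.

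The eIF4F scaffold changed in some genes and not in others. Eif4g1, the main scaffold that ties the cap to the ribosome, was at 377 to 411 CPM in knockout and 367 to 407 CPM in control mice of day 7, a log2 fold change of 0.05 (SE 0.08, adjusted p = 0.68). Eif4g2 (DAP5, a relative that lacks the eIF4E site and serves cap-independent initiation) was at 492 to 581 CPM against 266 to 309 CPM, with no overlap. It rose by 0.9 (SE 0.09, adjusted p = 3.9e-07). Eif4g3, another eIF4G, was at 141 to 194 CPM against 60.1 to 95.8 CPM and rose by 1.08 (SE 0.12, adjusted p = 7.4e-07), whereas its log2 fold change at day 3 was 0.01 (SE 0.12). The difference between the days was 1.09 for Eif4g3 (SE 0.17, adjusted p = 3.2e-05) and 0.5 for Eif4g2 (SE 0.16, adjusted p = 0.034). The latter did not pass without knockout replicate 5, control replicate 1 or control replicate 6 of day 3, nor without knockout replicates 1, 2 or 3 or control replicates 1, 5 or 6 of day 7, each left out singly (adjusted p-values of 0.052 to 0.063).

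The log2 ratio of Eif4g1 to Eif4g2 counts was -0.42 ± 0.12 in knockout and 0.42 ± 0.07 in control mice of day 7 (SD, n = 6 each), a difference of -0.84 (exact permutation test, two-sided, p = 0.00216, adjusted p = 0.00577). At day 3 the difference was -0.23 (exact permutation p = 0.122, adjusted p = 0.177), without knockout replicate 1 it was -0.29 (exact permutation p = 0.0408, unadjusted), and without the 8 libraries it was -0.09 (exact permutation p = 0.429, unadjusted). Eif4b, a cofactor of the helicase, rose by 0.9 at day 7 (102 to 136 CPM against 55.6 to 67.8 CPM, adjusted p = 1.8e-07), more than at day 3 by 0.63 (SE 0.12, adjusted p = 0.00047). Its relative Eif4h had a log2 fold change of 0.13 (SE 0.12, adjusted p = 0.43).

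Of the helicases, Eif4a1 was at 31.6 to 41.7 CPM in knockout and 27.2 to 34.1 CPM in control mice of day 7 and rose by 0.33 (SE 0.1, adjusted p = 0.011). Without control replicate 1 or knockout replicate 6 the adjusted p was 0.05 and 0.054. Eif4a2, its close relative, was at 13.3 to 20.5 CPM against 13.3 to 19.1 CPM, a log2 fold change of 0.0 (SE 0.13, adjusted p = 1.0). Within libraries the Eif4a1/Eif4a2 ratio was 0.34 higher in knockout mice at day 7 (exact permutation test, two-sided, p = 0.0173, adjusted p = 0.0277) and 0.08 lower at day 3 (exact permutation p = 0.758). Exons of Eif4a1 and Eif4a2 overlap small RNA genes on the same strand. Eif4a3, part of the exon junction complex, had a log2 fold change of -0.07 at day 7 (SE 0.12, adjusted p = 0.72).

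**Figure D4:**
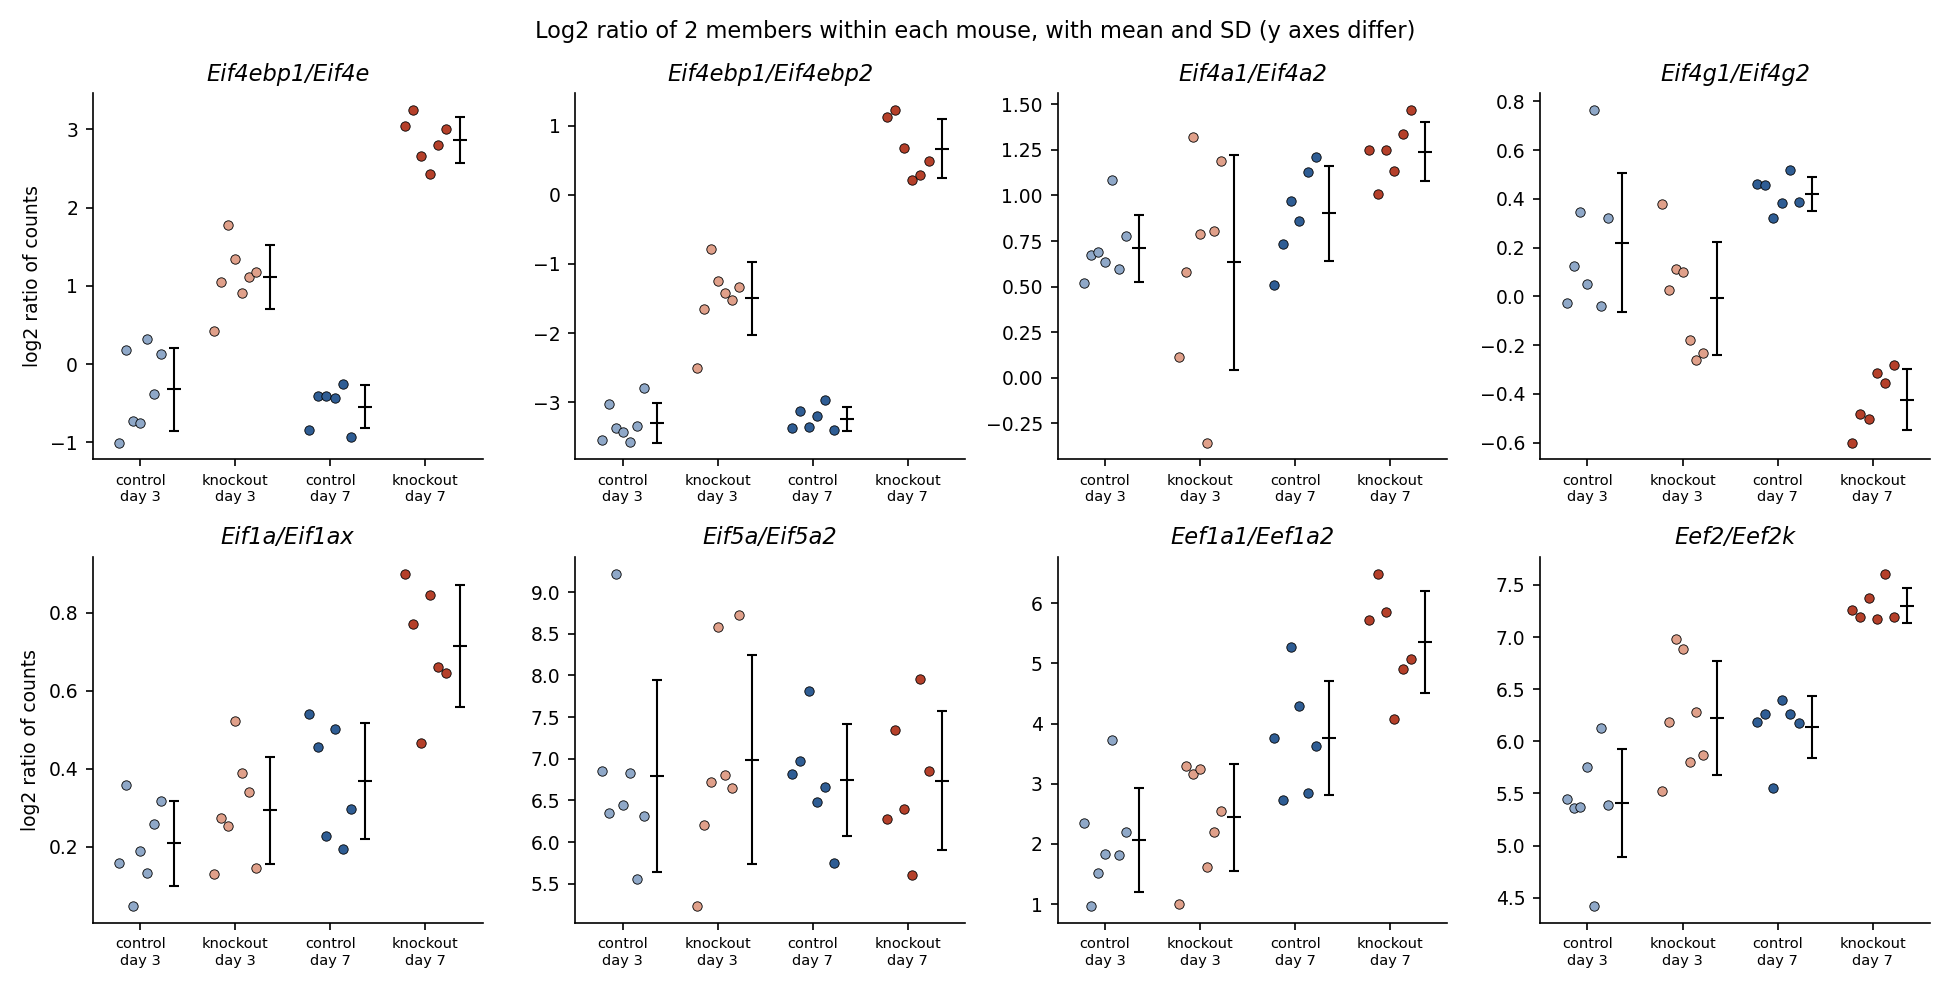
Log2 ratio of the counts of 2 members within each library (y axis, with its own range in each panel), 1 point per mouse, with mean and SD. At day 7 the genotypes are separate for Eif4ebp1/Eif4e, Eif4ebp1/Eif4ebp2, Eif4g1/Eif4g2 and Eef2/Eef2k, and they overlap for the other 4 pairs.

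Of the 6 genes listed with the eEF1 complex, 4 were higher at day 7 and 0 passed the threshold at day 3. The shares of all genes called higher were 19.7% and 1.11%. Among these 4 is Eef1e1, described below, whose product belongs to the aminoacyl-tRNA synthetase complex. Eef1b2, which encodes the exchange factor of eEF1A, was at 477 to 573 CPM in knockout (median 508) and 190 to 237 CPM in control mice (median 206) of day 7, with no overlap. It rose by 1.32 (SE 0.09, adjusted p = 1.5e-09), after a log2 fold change of 0.23 at day 3 (SE 0.12, adjusted p = 0.44), and the difference was 1.11 (SE 0.15, adjusted p = 4e-06). Its 3′ end matches 1 pseudogene and its exons overlap Ndufs1 on the other strand.

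Eef1a1, which encodes the factor that delivers aminoacyl-tRNA, was at 32.2 to 78.3 CPM in knockout (median 43.5) and 11.7 to 23.1 CPM in control mice (median 17.1) of day 7. The groups did not overlap, although the knockout mice varied widely. The log2 fold change was 1.59 at day 7 (SE 0.22, adjusted p = 1.3e-05) and 0.33 at day 3 (SE 0.18, adjusted p = 0.45), and the difference was 1.28 (SE 0.31, adjusted p = 0.0037). Other genes share the last bases of Eef1a1 in 12 cases, 10 of them pseudogenes, so its values are uncertain. Eef1a2, the form of muscle and neurons, was at most 9.25 CPM in all libraries and had a log2 fold change of -0.17 at day 7 (SE 0.41, adjusted p = 0.78). The Eef1a1/Eef1a2 ratio was 1.6 higher in knockout mice at day 7 (exact permutation test, two-sided, p = 0.0173, adjusted p = 0.0277), with overlapping ranges.

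Eef1e1, which encodes a protein of the aminoacyl-tRNA synthetase complex, was at 10.2 to 14.4 CPM in knockout and 2.7 to 5.77 CPM in control mice of day 7 and rose by 1.64 (SE 0.19, adjusted p = 1.5e-06). At day 3 the ranges overlapped (4.62 to 11.3 CPM against 2.19 to 6.88 CPM, adjusted p = 0.17). Eef1d rose by 0.38 at day 7 (adjusted p = 0.0087), and Eef1g had a log2 fold change of 0.4 (SE 0.16, adjusted p = 0.055).

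Eef2, which encodes the translocase, rose with eEF1. It was at 1530 to 1750 CPM in knockout (median 1700) and 810 to 873 CPM in control mice (median 867) of day 7, with no overlap. The log2 fold change was 1.0 at day 7 (SE 0.09, adjusted p = 3.7e-08) and 0.36 at day 3 (SE 0.15, adjusted p = 0.3), where 674 to 1230 CPM overlapped with 704 to 991 CPM, and the difference was 0.67 (SE 0.18, adjusted p = 0.012). Eef2k, which encodes the kinase that inactivates eEF2, was at 8.72 to 11.9 CPM against 10.2 to 18.5 CPM at day 7, a log2 fold change of -0.2 (SE 0.17, adjusted p = 0.4). The Eef2/Eef2k ratio was 1.16 higher in knockout mice at day 7 (exact permutation test, two-sided, p = 0.00216, adjusted p = 0.00577) and 0.81 higher at day 3 (exact permutation p = 0.0128, adjusted p = 0.0256). Without the 8 libraries the difference at day 3 was 0.59 (exact permutation p = 0.161).

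The enzymes that modify elongation factors split. Eef2kmt, a methyltransferase of eEF2, rose by 0.67 at day 7 (19.1 to 22.5 CPM against 10.7 to 16.4 CPM, adjusted p = 0.00026), after 0.02 at day 3, with a difference of 0.68 (SE 0.18, adjusted p = 0.0091). At day 3 it was at 16.0 to 22.6 CPM in knockout and 18.8 to 29.6 CPM in control mice, so in CPM the days differed mainly in the control mice. Eef1akmt4 rose by 0.68 (adjusted p = 0.021). Eef1akmt3 and Eef1akmt1, which methylate lysines of eEF1A, fell by 1.31 (1.48 to 2.7 CPM against 3.31 to 8.25 CPM, adjusted p = 0.00031) and by 0.55 (4.56 to 7.57 CPM against 6.67 to 11.2 CPM, adjusted p = 0.015). Eef1akmt3 lies at few counts and shares exon sequence with Mettl1 on the other strand.

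Eif5a, whose product carries hypusine and helps ribosomes over difficult peptide bonds, was at 119 to 155 CPM in knockout and 97.2 to 134 CPM in control mice of day 7, a log2 fold change of 0.19 (SE 0.1, adjusted p = 0.17). At day 3 it was 0.13 (SE 0.18, adjusted p = 0.82). Eif5a2 was at most 3.12 CPM in all libraries, and the Eif5a/Eif5a2 ratio differed by 0.2 at day 3 (exact permutation test, two-sided, p = 0.795) and by -0.01 at day 7 (exact permutation p = 0.978). Eif6, which keeps free large subunits from joining, rose by 0.35 at day 7 (308 to 376 CPM against 215 to 330 CPM, adjusted p = 0.031). The ratio of Eif1a to Eif1ax, a pair of genes for eIF1A, was 0.35 higher in knockout mice at day 7 (exact permutation p = 0.00649, adjusted p = 0.0148) and 0.08 higher at day 3 (exact permutation p = 0.228).

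Across the days, the interaction test called 18 members with a larger and 1 with a lower effect at day 7, where 7.07% of 23803 genes were called larger and 8.1% lower. Besides the members described above, no other passed. A larger effect at day 7 can lie in the control mice as well as in the knockout mice. Mean control CPM at day 3 and day 7 was 57.2 and 39.1 for Eif4e3, 71.5 and 47.4 for Eif3e, and 124 and 79.3 for Eif4g3. For Eef2 it was 835 and 850, and for Eif2s2 46.2 and 45.9. Such shifts between control mice depend on the scaling, as given below. Of 10 factors whose mRNAs are textbook TOP mRNAs (Eef1a1, Eef1b2, Eef1d, Eef1g, Eef2, Eif3a, Eif3e, Eif3f, Eif3h and Eif4b), 9 rose at day 7 with a median log2 fold change of 0.81, 1 rose at day 3, and 7 had a larger effect at day 7. Eef1g was the 1 that did not pass at day 7. Over all genes tested, 1.11% were called higher at day 3 and 19.7% at day 7.

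Genes that work beside these factors were read from lists. Over all genes tested, 1.11% were called higher and 0.323% lower at day 3, and 19.7% and 18.8% at day 7. Of 9 genes that set or lift eIF2α phosphorylation or read it out, 1 was higher at day 3 (11.1%) and 3 at day 7 (33.3%), and 0 were lower. Ppp1r15a, which encodes the inducible subunit of the eIF2α phosphatase, was at 76.6 to 143 CPM in knockout and 3.27 to 9.47 CPM in control mice of day 7, a log2 fold change of 3.82 (SE 0.19, adjusted p = 2.6e-11), and at 11.6 to 33.2 CPM against 8.96 to 20.6 CPM at day 3. The interaction for Ppp1r15a was 3.59 (SE 0.31, adjusted p = 2.7e-09). Atf4, the transcription factor whose translation rises when eIF2α is phosphorylated, rose by 1.44 at day 3 (447 to 937 CPM against 230 to 297 CPM, adjusted p = 5.9e-05) and by 1.87 at day 7 (780 to 1040 CPM against 223 to 300 CPM, adjusted p = 1.5e-10). Impact, an inhibitor of GCN2 activation, rose by 0.43 at day 7 (adjusted p = 0.027).

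Of 17 genes of mTORC1 and its regulators, 1 was higher at day 3 (5.88%), and 8 were higher (47.1%) and 2 lower (11.8%) at day 7. Over all genes, 1.11% were called higher at day 3, and 19.7% higher and 18.8% lower at day 7. Sesn1 and Sesn2 encode leucine sensors that restrain mTORC1. Sesn2 rose by 1.29 at day 3 (adjusted p = 0.0049) and by 2.06 at day 7 (30.1 to 36.0 CPM against 5.43 to 12.4 CPM, adjusted p = 7.4e-09). Sesn1 fell by 2.37 at day 7 (median 9.79 CPM against 57.2 CPM, adjusted p = 2.6e-08). Castor2, a relative of the arginine sensor Castor1, fell by 1.82 (11.4 to 20.8 CPM against 37.3 to 71.4 CPM, adjusted p = 6.8e-08). In control mice, Sesn1 and Castor2 were higher at day 7 than at day 3, by 1.09 (adjusted p = 0.001) and 1.34 (adjusted p = 9.7e-05).

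Of 9 genes for poly(A)-binding proteins and their partners, 3 were higher (33.3%) and 1 lower (11.1%) at day 7, and 1 was lower at day 3 (11.1%). Over all genes, 19.7% were called higher and 18.8% lower at day 7, and 0.323% lower at day 3. The gene of this list that was lower on both days was Pdcd4, whose product inhibits eIF4A. It fell by 1.1 at day 3 (111 to 330 CPM against 346 to 848 CPM, adjusted p = 0.041) and by 2.28 at day 7 (45.8 to 87.8 CPM against 269 to 342 CPM, adjusted p = 1.1e-09), and the genotypes did not overlap on either day. Pabpc4 rose by 1.26 (199 to 348 CPM against 55.9 to 133 CPM, adjusted p = 2.8e-05) and Paip1, a coactivator of poly(A)-binding protein, by 0.72 (adjusted p = 4e-05) at day 7.

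Of 9 genes that make diphthamide on eEF2 or hypusine on eIF5A, 7 rose at day 7 (77.8%, against 19.7% of all genes) and 0 passed at day 3. Dph6, the last step of diphthamide synthesis, rose by 1.63 (34.2 to 43.0 CPM against 11.9 to 14.7 CPM, adjusted p = 5.9e-10), with Dph5 at 0.77 (adjusted p = 0.00019) and the hypusine enzyme Dhps at 0.63 (adjusted p = 5.9e-05). Of 9 genes of termination, ribosome recycling and rescue, 2 rose at day 3 (22.2%, against 1.11% of all genes) and 6 at day 7 (66.7%, against 19.7%). Abce1, the ATPase that splits ribosomes, rose by 1.02 at day 7 (52.7 to 72.9 CPM against 26.6 to 34.2 CPM, adjusted p = 9.4e-08), and Denr, a recycling factor, by 0.8 (adjusted p = 4.7e-06). Etf1, the release factor eRF1, rose by 0.56 at day 3 (adjusted p = 0.019) and by 0.71 at day 7 (adjusted p = 5.3e-06). Neither of the 2 eIF4E kinases passed on either day, with Mknk1 at 0.15 (adjusted p = 0.44) and Mknk2 at -0.16 (adjusted p = 0.32) at day 7.

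The control mice of the 2 days were also compared, since a shift between them enters the interaction. With TMM factors, 14 members were higher and 5 lower at day 7 than at day 3, where 19.7% of 20646 genes were called higher and 16.3% lower. With library totals alone, 3 were higher and 35 lower, where 1977 and 7372 of the 20646 genes were. The median of all genes moved from -0.06 to -0.41, so that directions in this comparison depend on the scaling. Among the members that kept their direction under library totals, Eif2ak1 was 0.75 higher on the log2 scale at day 7 (adjusted p = 0.00046), whereas Eef1a2 fell by 1.46 (adjusted p = 0.006). Control mice did not overlap in CPM between the days for 0 members higher and 9 lower at day 7, against 3.94% and 15.0% of all genes. All 8 smooth muscle genes were lower in control mice at day 7 (640 to 1170 CPM against 1830 to 3300 CPM) and all 10 enterocyte genes were higher (10300 to 20200 CPM against 1330 to 8960 CPM), and their part in these differences was not tested. The sources used here name no sequencing batch, so a batch effect and the effect of day cannot be told apart.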

How the data were processed

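RNA-seq libraries of 26 mice were analysed from the deposited table of estimated counts per gene. The authors trimmed reads with cutadapt 2.10 and counted them with featureCounts 2.0.1 (GRCm38, Ensembl 100), splitting reads between overlapping genes, so values may be fractional and 95% were whole numbers. No strand setting is named, so overlapping genes on opposite strands may share reads. The deposited CPM table equals these counts divided by the library total. The design had assumed whole counts, and fractional values were rounded first. The 92 spike-in entries held 0 counts, and 0 pairs of libraries within a group were identical.

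Within a day, a gene was not tested if most samples of the knockout or of the control mice had no count for it. Between control mice the same rule was applied to each day. For the difference between days, a gene was left out only if most samples of every group had no count for it. edgeR 4.0.16 (R 4.3.3, TMM factors, quasi-likelihood test) was fitted to each day, the difference between days in all 26 libraries, and p-values were adjusted by Benjamini-Hochberg over all genes tested (threshold 0.05). SE was derived from the log2 fold change and its F statistic. Ratios of counts (pseudocount 0.5) were compared by exact permutation with scipy 1.17.1. Scripts were tested on simulated data. Ratios between mice carry counting error as well as the spread between mice.

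The name rule that set the members, the gene lists, the pairs and the tests were chosen with earlier results of these data known. The ratios reuse counts of members that were also tested singly, so they are not independent of those tests. Named in full were members called at day 3, the 10 largest rises and falls called at day 7 with a mean of at least 10 CPM, members with a called difference between days, and a fixed set of kinases, inhibitors and core factors. From each other list up to 3 called genes were named. Other members are named to account for their role. Copies were sought in the last 300 bases (at least 100 matched, 95% identity). Alternatives were DESeq2 1.42.0, other scaling and filters, a fit of all samples, a replicate block, and leaving out each mouse. Leaving out the 8 libraries with pancreatic or stomach genes was added after seeing the data. The targeted gene is not reported here.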

Additional observations from a re-analysis of the deposited data

Results flagged for a closer look

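In 16 of 136 groups of named members 1 mouse lay far from the rest of its group by Dixon's test, where chance gives about 1 in 20 (6.8 groups). In control replicate 5 of day 3 this held for Eif4ebp2 (391 CPM, next 228), Eef2k (35.5, next 20.9) and Eef2kmt (29.6, next 20.8), which were high, and for Eif4g2 (248, next 352), which was low. Knockout replicate 1 of day 3 was high in Eif2ak4 (30.7 CPM, next 16.6) and Eef1a2 (9.25, next 4.87). Both are among the 8 libraries with pancreatic or stomach genes. Knockout replicate 5 of day 3 was high in Eif4a2 (44.5 CPM, next 27.7) and low in Eif4ebp2 (101, next 189), and control replicate 4 of day 3 was high in Eif4ebp3 (10.1, next 7.53). At day 7, control replicate 4 was high in Eif2ak4 (12.9 CPM, next 8.9) and low in Eif2s2 (40.2, next 45.5). Control replicate 2 was low in Eif3e (36.9, next 48.2), control replicate 3 high in Eef2k (18.5, next 11.8), control replicate 5 high in Eif3a (526, next 440) and control replicate 6 low in Eif5a (97.2, next 122). Knockout replicate 3 of day 7 was high in Eif2d (29.6 CPM, next 20.5).

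The knockout effect differed between the days for 19 members (interaction in edgeR, adjusted p under 0.05), and it was larger at day 7 for 18 of them. On the log2 scale the effect at day 7 minus that at day 3 was 1.75 for Eif4ebp1, 1.28 for Eef1a1, 1.25 for Eif5, 1.11 for Eef1b2, 1.09 for Eif4g3 and 1.08 for Eif2d. It was 0.8 for Eif3e, 0.71 for Eif4e3, 0.68 for Eef2kmt, 0.67 for Eef2, 0.63 for Eif2s2, Eif3f and Eif4b, and 0.62 for Eif2b3. It was 0.57 for Eif3i, 0.56 for Eif3h, 0.5 for Eif4g2 and 0.46 for Eif3j2. For Eif2ak2 it was -0.48.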

How the results depend on the processing

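At day 3, 13 members were higher with DESeq2, 11 with all 26 samples in 1 fit and 5 to 14 when single mice were left out (14 without knockout replicate 1), against 5 as reported. Over all genes, 230 were higher as reported, 536 with DESeq2, 511 with all 26 samples in 1 fit and 584 without knockout replicate 1. Without that mouse Eif2ak4 turned to -0.06 on the log2 scale at day 3, within a range of -0.06 to 0.23 over the mice left out. At day 7, 36 to 43 members were higher and 4 to 6 lower with each mouse left out. Of all genes, 3462 to 3914 were then higher and 3554 to 3953 lower. For the difference between days, 16 to 21 were larger and 1 to 2 lower with each mouse left out. All genes gave 1464 to 1907 larger and 1721 to 2212 lower. Lower were 2 members with DESeq2 (2289 of all genes), 2 with another filter (filterByExpr, 2103 genes) and 0 with library totals (1729 genes). Between control mice, 3 members were higher and 35 lower at day 7 with library totals, 7 and 12 with upper quartile factors, and 8 and 3 without the 8 libraries. All genes gave 1977 and 7372 of 20646 with library totals, 3002 and 4772 with upper quartile factors, and 2858 and 2442 of 20380 without those libraries. Lower members there were 10 with filterByExpr, 3 with no filter, and 3 to 9 (10 to 14 higher) with each mouse left out, the 9 without control replicate 5 of day 3. Lower genes were 3806 of 14889 with filterByExpr, 3173 of 29265 with no filter, and 2772 to 3887 (3579 to 3976 higher) with each mouse left out. With library totals Eif2s2 (-0.01), Eif3f (-0.09), Eif4e (-0.02) and Eif4g1 (-0.05) changed sign there, and so did Eef2k in the difference between days without the 8 libraries (-0.0). The Eif4g1/Eif4g2 difference at day 3 was -0.29 without knockout replicate 1 (under 0.05 before adjustment over the 16 comparisons only), and that of Eef2/Eef2k did not pass without the 8 libraries (0.59). The cause of these changes was not tested. Depth limits Eif2s3x, Eif3m, Eif5a2 and Eef1a2.

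The main tests did not pair the mice by replicate number. Same-numbered mice correlated between -0.382 and 0.449 in their deviations, and few matched their own number best. These values cannot exclude that some numbers pair littermates. With a replicate block, 4 members were higher at day 3, and 41 were higher and 5 lower at day 7. In the difference between days, 15 members were larger and 1 lower. With the block, 79 of all genes were higher and 20 lower at day 3, against 230 and 67 as reported. At day 7 the counts were 3922 and 3637, against 3984 and 3806. For the difference between days they were 1341 larger and 1563 lower, against 1683 and 1928. With library totals the median of all genes at day 3 moved from -0.03 to -0.14, and the split from 230 higher and 67 lower to 125 and 115.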
